A study of Homo sapiens with 9 samples.

Results

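Collagen chain genes were followed in SNU-398, an established hepatocellular carcinoma (HCC) cell line of mesenchymal-like character, after forced expression of the homeobox gene EMX1. The chains were chosen by gene symbol alone (COL, a type number, the letter A and a chain number, with no pseudogene or antisense name), which gave 44 of the 60642 gene names in the count table. RNA-seq was made from 9 libraries in 3 groups of 3. The vector control group carried the empty lentiviral vector, the EMX1-FL group carried the full-length EMX1 transcript, and the EMX1-X1 group carried the splice isoform that ends in an alternative last exon. All 3 groups share the SNU-398 background, the lentiviral transduction and the selection with puromycin. The labels do not say whether the replicate libraries came from separate cultures or whether the lines were pools or clones, so p-values here measure the spread between these libraries. EMX1 itself was counted at 6.34, 6.52 and 7.69 TPM (transcript level per gene length, scaled to the same total in every library) in the vector control libraries, at 168, 91.6 and 103 TPM with EMX1-FL, and at 99.8, 205 and 195 TPM with EMX1-X1. Counts are per gene name, so the isoforms and the cell's own EMX1 are added together in these values.

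Collagens are secreted or membrane proteins built from α chains that wind around each other in a triple helix, and each chain has a gene of its own. Fibrillar chains form the banded fibers of connective tissue, basement membrane chains (type IV) form the sheet-like networks under epithelia and around vessels, and FACIT chains (fibril-associated collagens with interrupted triple helices) sit on fibril surfaces. The remaining chains form beaded filaments, anchoring fibrils, hexagonal networks, transmembrane proteins and multiplexins. In liver, most collagen is made by stellate cells and other mesenchymal cells.

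Each library held 21562703 to 25197970 counts, and collagen chains took between 0.158% and 0.179% of them. The libraries fell into a pair of sets along the first principal component of all genes (39.6% of the variance). Vector control 1 and 2, EMX1-FL 2 and 3 and EMX1-X1 1 formed set A, while vector control 3, EMX1-FL 1 and EMX1-X1 2 and 3 formed set B. The 1000 genes highest in set B had a median GC content of 62.1%, and the 1000 genes highest in set A one of 39%. No label names a batch for these sets, and both hold libraries of all 3 groups. Differences within each set are therefore given beside the results they touch. They are not free of the first component, since the groups still differed along it within each set. In set B, vector control 3 scored 17.9, EMX1-FL 1 scored 47.9, and EMX1-X1 2 and 3 scored 42.5 and 50.8. In set A, vector control 1 and 2 scored -21.8 and -20.9, and EMX1-X1 1 scored -18.6. EMX1-FL 2 and 3, also of set A, scored -47.8 and -49.9. A covariate for the set has the same limit. Set B holds 1 vector control and 1 EMX1-FL library, and set A holds 1 EMX1-X1 library. Apart from EMX1-FL against vector control in set A, each difference rests on 1 library on at least 1 side, so no spread is given.

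The collagen transcripts of SNU-398 were dominated by a few chains. COL3A1, the only chain of type III collagen, was highest, at 357 ± 19.1 TPM in vector control, 313 ± 24.5 with EMX1-FL and 338 ± 29.3 with EMX1-X1 (mean ± SD, n = 3 each). It made up 40.2% of all collagen TPM over the 9 libraries. COL21A1, a FACIT chain, followed at a mean of 171 TPM over the 9 libraries, then COL5A2, a chain that is built into type I fibrils and limits their diameter, at 107 TPM, and COL11A1, a minor fibrillar chain best known from cartilage, at 73.3 TPM. These 4 chains together held 82.2% of the collagen TPM. COL12A1, another FACIT chain, came next at 35.0 TPM, ahead of COL6A1 at 21.9, COL6A2 at 19.3 and COL1A1 at 13.9 TPM. Of the 44 chains, 13 had a mean of at least 5 TPM and 25 had a mean under 1 TPM.

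The partners of a trimer were often at very different levels. The main chain of type I collagen, COL1A1, was 14.2 ± 2.69 times as high per length as its partner COL1A2 in vector control (SD, n = 3). COL5A2 was 86.1 ± 19.9 times as high as COL5A1, and COL11A1 between 89.7 and 352 times as high as COL11A2. COL6A1 and COL6A2, partners in the beaded filaments of type VI collagen, were close to each other (ratio 1.195 ± 0.119), while COL6A3, which usually joins them, was far lower (COL6A1 to COL6A3, 46.9 ± 26.4). COL4A1 and COL4A2, which assemble in the most widespread type IV collagen, stood at a ratio of 2.31 ± 0.248.

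Of the 44 chains, 28 passed the filter on low counts and were tested: 10 of 11 fibrillar, 5 of 6 basement membrane, 4 of 10 FACIT and 9 of 17 other chains. The other 16 chains had at most 18 counts in any library and a mean of at most 0.108 TPM. Among them, COL24A1 and COL6A5 had no count in any library. The untested chains are COL4A6 of the basement membrane class, COL9A1, COL14A1, COL16A1, COL19A1, COL20A1 and COL22A1 of the FACIT class, COL24A1 of the fibrillar class, and COL6A5, COL6A6, COL8A1, COL8A2, COL15A1, COL17A1, COL25A1 and COL28A1 of the rest.

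The summed level of the basement membrane class stood apart from vector control in both overexpression groups, while the groups overlapped for the fibrillar and FACIT classes. Basement membrane chains summed to 17.0, 16.7 and 13.6 TPM in the vector control libraries, to 29.5, 22.9 and 25.0 TPM with EMX1-FL, and to 22.2, 25.9 and 23.9 TPM with EMX1-X1. Every library of both overexpression groups lay above every vector control library. Fibrillar chains summed to 551 ± 5.84 TPM in vector control, 517 ± 34.1 with EMX1-FL and 544 ± 31.2 with EMX1-X1 (SD, n = 3). FACIT chains summed to 219 ± 56.2, 212 ± 42.2 and 197 ± 30.3 TPM, and the other chains to 53.1 ± 3.95, 66.5 ± 26.1 and 82.0 ± 23.0 TPM, in the same order of groups. The sum over all 44 chains was 839 ± 57.3, 821 ± 44.2 and 847 ± 39.2 TPM, and the 3 groups overlapped.

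With EMX1-FL against vector control, 2 of the 28 tested chains passed the study's threshold for a differentially expressed gene (in edgeR, an unadjusted p below 0.05 with a log2 fold change beyond 1 in either direction), COL12A1 and COL6A3, both higher. Over all 18574 genes tested, 2.04% passed it as higher and 0.382% as lower, the latter with no collagen chain. COL12A1 alone also had an adjusted p under 0.05, as had 0.07% of all genes as higher. With an offset in the fit for the GC content of genes in each library, and likewise with the set of libraries as a covariate, 3 chains had one (COL12A1, COL4A1 and COL4A2), against 1.41% and 1.53% of all genes in either direction. At an unadjusted p under 0.05 with no fold change threshold, 6 chains were higher (COL12A1, COL6A3, COL4A1, COL4A2, COL4A5 and COL27A1) and none lower, against 3.97% of all genes that were higher. The lowest EMX1-FL library lay above the highest vector control library for 8 chains, against 5.36% of all genes. No chain was separated in the other direction, as 5.14% of all genes were. Most chains leaned upward: 22 of 28 had a fold change above 0, with a median log2 fold change of 0.43, while 56.3% of all genes did, with a median of 0.04. After the GC offset, 21 of 28 chains were above 0, with a median of 0.33, beside 45.1% of all genes. With the set as covariate it was 22 of 28, with a median of 0.34, beside 53.3%. The lean was smaller without EMX1-FL replicate 1, the only library of its group in set B. That fit sets EMX1-FL libraries of set A against vector control libraries of both sets. In it, 15 of 28 chains were higher and the median was 0.08. COL12A1 was the 1 chain past the threshold, against 2.34% of all genes as higher.

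With EMX1-X1 against vector control, 2 chains passed the same threshold, COL6A3 and COL4A2, both higher. Here 1.95% of all genes passed it as higher and 0.544% as lower, and again no chain was among the lower ones. No chain had an adjusted p under 0.05 in edgeR, where EMX1 was the only gene to pass it with the fold (0.00538% of genes), while DESeq2 gave COL6A3 an adjusted p of 0.0084 and COL12A1 one of 0.0324. In edgeR, 2 chains (COL6A3 and COL12A1) had an adjusted p under 0.05 with the GC offset and 1 (COL12A1) with the set as covariate, against 0.383% and 0.307% of all genes in either direction. At an unadjusted p under 0.05 alone, 6 chains were higher (COL12A1, COL6A3, COL4A1, COL4A2, COL1A1 and COL26A1) and none lower, against 5.95% of all genes. The groups did not overlap for 7 chains that were higher with EMX1-X1, against 8.03% of all genes, and for none that were lower, against 6.67%. Above 0 were 24 of 28 chains, with a median log2 fold change of 0.47, beside 51.1% of all genes with a median of 0.01. After the GC offset, the median was 0.19 and 20 of 28 chains were above 0, beside 45.6% of all genes. With the set as covariate it was 23 of 28, with a median of 0.30, beside 54.4%. The comparisons with EMX1-FL and with EMX1-X1 share their vector control libraries, so like values in both are not separate observations.

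Between EMX1-FL and EMX1-X1, no chain passed the threshold in edgeR, DESeq2 or limma, against 0.748% of all genes as higher and 0.668% as lower with EMX1-FL. At an unadjusted p under 0.05 alone, COL12A1 was higher with EMX1-FL and COL1A1 lower, where 2.98% of all genes were higher and 4.66% lower. These 2 chains were also the only ones whose libraries did not overlap, as were 3.89% of all genes in the upward and 4.49% in the downward direction. The 28 chains split evenly, 14 above and 14 below 0, with a median log2 fold change of -0.01. Without EMX1-FL replicate 1, the median was -0.31 and 2 chains, COL1A1 and COL18A1, passed the threshold as lower with EMX1-FL, against 4.2% of all genes in that fit.

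In the FACIT class, the 1 tested chain past the threshold was COL12A1, with EMX1-FL against vector control. Its long chains decorate fibrils of type I collagen. The gene lies on chromosome 6 (GRCh38, 75084326 to 75206053, minus strand), and no base of its exons is shared with another gene. The 250 bases before its start (RefSeq, GRCh38.p14, chr6:75206054-75206303, minus strand) are shown because COL12A1 is the 1 chain with an adjusted p under 0.05 in the fit with group as its only term, and EMX1 is a homeodomain factor, a family known to bind TAAT cores. Capitals mark CCGCCC, the reverse complement of GGGCGG, and ATTA, the reverse complement of TAAT.
COL12A1: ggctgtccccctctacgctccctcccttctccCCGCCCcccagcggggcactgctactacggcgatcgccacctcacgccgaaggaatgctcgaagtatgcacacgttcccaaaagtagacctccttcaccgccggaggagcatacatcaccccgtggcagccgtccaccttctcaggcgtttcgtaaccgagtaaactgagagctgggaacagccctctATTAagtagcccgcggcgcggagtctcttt

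On either strand, TAATTA, the palindromic form of the core, was not found in this window, while it was found in 4.35% of all 35116 upstream windows of 250 bases in the RefSeq table and in 1 of the 44 windows that the table holds for 32 of the chains (a window of COL10A1). The shorter TAAT, which is also counted inside TAATTA, was found in 47.4% of all windows and in 14 of the 44, the window of COL12A1 included. GGGCGG was found in 42.6% of all windows and in 24 of the 44. The letters describe these windows and were not tested for binding.

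COL12A1 stood at 22.4, 22.4 and 18.0 TPM in the vector control libraries, at 44.2, 47.5 and 50.3 TPM with EMX1-FL, and at 43.7, 35.2 and 31.0 TPM with EMX1-X1. The 3 groups did not overlap in any pair of them, with EMX1-FL highest and vector control lowest. The rise with EMX1-FL was a log2 fold change of 1.09 (SE 0.17, 95% interval 0.72 to 1.45), or 2.12-fold, with an adjusted p of 0.0497 in edgeR's quasi-likelihood test. An exact permutation test on log2 CPM (counts per 1000000), two-sided, gave p = 0.1, the smallest that 3 libraries against 3 allow. The log2 fold change kept to between 1.02 and 1.18 over all 21 alternative analyses, and the chain stayed past the unadjusted threshold in each of them. The adjusted p ranged from 2.51e-06 (DESeq2) to 0.365 (without vector control replicate 2), and was under 0.05 in 9 of the 21. Within set A the difference in log2 CPM was 1.07 and within set B it was 1.13. With EMX1-X1 the log2 fold change over vector control was 0.71 (SE 0.17, 95% interval 0.35 to 1.07, edgeR adjusted p = 0.355). The adjusted p was 0.00792 with the GC offset, 0.00803 with the set as covariate and 0.0324 in DESeq2, and it missed 0.05 in the 18 other alternatives. Within the sets the difference was 0.91 and 0.67. The direct difference of EMX1-FL over EMX1-X1 was 0.37 on the log2 scale (95% interval 0.01 to 0.73), with an edgeR unadjusted p of 0.0432 and an adjusted p of 0.611. Within set A this difference was 0.15 and within set B it was 0.46.

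The other FACIT chains did not follow COL12A1. COL21A1, a FACIT chain of vessel walls and other tissues, was listed at 241, 209 and 137 TPM in vector control, at 122, 160 and 202 TPM with EMX1-FL, and at 183, 154 and 134 TPM with EMX1-X1. These groups overlapped, and the log2 fold changes were -0.36 with EMX1-FL (95% interval -0.84 to 0.10) and -0.40 with EMX1-X1 (-0.87 to 0.07). Within sets A and B the difference was -0.38 and -0.34 with EMX1-FL, and -0.34 and -0.13 with EMX1-X1. With the set as covariate the edgeR unadjusted p was 0.0045 for EMX1-FL (adjusted p = 0.124) and 0.0607 for EMX1-X1, and with the GC offset it was 0.00129 (adjusted p = 0.0683) and 0.0236 (adjusted p = 0.303). COL9A2, a chain of the cartilage collagen type IX, stood at 1.92 ± 0.631, 2.43 ± 1.22 and 2.87 ± 1.07 TPM in vector control, EMX1-FL and EMX1-X1 (SD, n = 3), again with overlap. COL9A3, its partner, had 0 to 13 counts per library and an interval too wide to place it on either side of 0. The median log2 fold change of the 4 tested FACIT chains was 0.15 with EMX1-FL and 0.28 with EMX1-X1, but -0.18 with EMX1-X1 after the GC offset and -0.23 with EMX1-FL without its replicate 1.

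In the basement membrane class, all 5 tested chains were above 0 in both comparisons with vector control. The median log2 fold change was 0.44 with EMX1-FL and 0.28 with EMX1-X1. After the GC offset it was 0.43 and 0.31, and without EMX1-FL replicate 1 it was 0.50 in the first comparison, with all 5 chains above 0 each time. COL4A1 and COL4A2 lie head to head on chromosome 13, and their RefSeq starts are 126 bases apart. The stretch between them is shown because both chains were higher in both overexpression groups. It covers the 100 bases that are in no exon of either gene in the count table (GRCh38.p14, chr13:110307158-110307257, plus strand, which is the strand of COL4A2), with CCAAT and GGGCGG in capitals.
COL4A1-COL4A2: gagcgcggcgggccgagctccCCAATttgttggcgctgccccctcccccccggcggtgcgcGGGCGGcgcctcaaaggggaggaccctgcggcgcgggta

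CCAAT was found in 32% of all upstream windows, on either strand, and TAAT and TAATTA were not found in these 100 bases. The other type IV genes are also paired head to head, with 418 bases between the starts of COL4A4 and COL4A3 on chromosome 2 and 379 bases between those of COL4A6 and COL4A5 on the X chromosome.

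COL4A1 stood at 5.46, 5.81 and 5.22 TPM in vector control, at 11.4, 8.58 and 8.74 TPM with EMX1-FL, and at 7.33, 9.08 and 8.81 TPM with EMX1-X1. All 6 overexpression libraries lay above the 3 vector control libraries. The log2 fold change was 0.70 with EMX1-FL (SE 0.19, edgeR unadjusted p = 0.00274, adjusted p = 0.294) and 0.51 with EMX1-X1 (SE 0.19, unadjusted p = 0.0178, adjusted p = 0.568). Within the sets the EMX1-FL difference was 0.56 and 0.95, and the EMX1-X1 difference 0.33 and 0.57. The EMX1-FL value had an adjusted p of 0.0136 with the GC offset, 0.0115 with the set as covariate and 0.0442 in DESeq2, while for EMX1-X1 it was 0.145 or more in every alternative.

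COL4A2 stood at 2.11, 2.59 and 2.48 TPM in vector control, at 8.16, 3.23 and 3.66 TPM with EMX1-FL, and at 4.10, 6.52 and 6.02 TPM with EMX1-X1. Again no overexpression library overlapped with vector control, but EMX1-FL replicate 1 was far above the other 2 of its group. COL4A2 rose with EMX1-X1 by a log2 fold change of 1.10 (SE 0.34, 95% interval 0.36 to 1.84, edgeR unadjusted p = 0.00707, adjusted p = 0.494). This fell below the fold threshold without EMX1-X1 replicate 2 (0.98) or without vector control replicate 1 (0.97), after the GC offset (0.93), in limma on log2(TPM + 1) (0.93) and with the set as a covariate (0.82). With EMX1-FL the log2 fold change was 0.97 (SE 0.34, edgeR unadjusted p = 0.0143, adjusted p = 0.615), and without EMX1-FL replicate 1 it was 0.40 with an unadjusted p of 0.0883. Its adjusted p with EMX1-FL was 0.0498 with the GC offset, 0.0412 with the set as covariate and 0.0298 without the filter on low counts. About 0.5% of the exon bases of COL4A2 are shared with antisense genes.

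COL4A5, which is mutated in Alport syndrome, was the highest chain of the class, at 8.11, 7.06 and 5.05 TPM in vector control, 8.56, 9.26 and 11.3 TPM with EMX1-FL and 9.35, 8.95 and 7.80 TPM with EMX1-X1. Only the EMX1-FL libraries lay wholly above vector control, with a log2 fold change of 0.44 (SE 0.19, edgeR unadjusted p = 0.0392, adjusted p = 0.832). Its value with EMX1-X1 was 0.28 (95% interval -0.13 to 0.69). COL4A3 and COL4A4, partners of COL4A5 in the glomerular basement membrane, were under 1.1 TPM in every library, with log2 fold changes of 0.43 and 0.31 with EMX1-FL and 0.24 and 0.18 with EMX1-X1, none with a p under 0.05. For COL4A3, 9.2% of the exon bases are shared with MFF-DT. COL4A6 had 19 counts over all 9 libraries. Between EMX1-FL and EMX1-X1, no type IV chain had an unadjusted p under 0.05, and the median log2 difference was 0.16.

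Among the fibrillar chains the most abundant overlapped between the groups. COL3A1 was at 341, 351 and 378 TPM in vector control, 341, 296 and 302 TPM with EMX1-FL and 304, 352 and 357 TPM with EMX1-X1. Its log2 fold change was -0.29 with EMX1-FL (95% interval -0.62 to 0.04) and -0.18 with EMX1-X1 (-0.52 to 0.15). Within sets A and B it was -0.27 and -0.32 with EMX1-FL, and -0.24 and -0.30 with EMX1-X1. With the set as covariate the edgeR unadjusted p was 0.00581 (adjusted p = 0.139) and 0.0119 (adjusted p = 0.26), and with the GC offset it was 0.0182 and 0.0738. COL5A2 was the steadiest chain of the abundant ones, between 95.7 and 114 TPM in all 9 libraries. Its log2 fold changes of -0.02 (95% interval -0.32 to 0.28) and -0.03 (-0.33 to 0.27) leave room for changes of either sign within those bounds. COL11A1 stood between 55.5 and 83.1 TPM, with fold changes of -0.05 and -0.16 on the log2 scale.

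COL1A1, the main chain of type I collagen, separated the isoforms by library without passing the fold threshold. It stood at 11.3, 12.6 and 10.8 TPM in vector control, at 12.5, 8.74 and 10.2 TPM with EMX1-FL, and at 14.7, 23.3 and 21.3 TPM with EMX1-X1. Every EMX1-X1 library lay above all libraries of the other 2 groups, which overlapped with each other. The EMX1-FL to EMX1-X1 difference was -0.91 on the log2 scale (SE 0.22, 95% interval -1.38 to -0.43, edgeR unadjusted p = 0.00131, adjusted p = 0.611), and it was -0.64 within set A, -0.79 within set B and -0.56 after the GC offset (adjusted p = 0.299). It passed the fold threshold without EMX1-FL replicate 1 (-1.06, adjusted p = 0.0457) and without EMX1-X1 replicate 1 (-1.08, adjusted p = 0.1). Against vector control, EMX1-X1 was higher by 0.67 (SE 0.22, edgeR unadjusted p = 0.00916, adjusted p = 0.534), by 0.24 and 0.84 within the sets, and by 0.30 after the GC offset. Its GC content of 61.0% puts COL1A1 among the 14 tested chains with the higher GC content. COL1A2, its partner, was at 0.832 ± 0.119, 1.08 ± 0.254 and 1.23 ± 0.267 TPM in vector control, EMX1-FL and EMX1-X1 (SD, n = 3), and those groups overlapped.

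COL27A1, a fibrillar chain found in cartilage, was at 1.69, 1.88 and 1.52 TPM in vector control, 5.14, 2.55 and 2.21 TPM with EMX1-FL and 2.12, 2.72 and 2.17 TPM with EMX1-X1. Both overexpression groups lay above vector control, and EMX1-FL replicate 1 lay highest. Its log2 fold change with EMX1-FL was 0.88 (SE 0.30, edgeR unadjusted p = 0.0141, adjusted p = 0.611), and 0.38 with an unadjusted p of 0.0876 without that library. COL5A1, which pairs with COL5A2, was at 1.23 ± 0.208 TPM in vector control, 1.76 ± 0.737 with EMX1-FL and 1.92 ± 0.401 with EMX1-X1 (SD, n = 3). COL2A1, the cartilage fibril chain, stood between 0.865 and 1.90 TPM, and COL5A3 and COL11A2 had means of 0.428 and 0.586 TPM over the 9 libraries. The median log2 fold change of the 10 tested fibrillar chains was 0.23 with EMX1-FL and 0.39 with EMX1-X1. It was -0.02 without EMX1-FL replicate 1 in the first comparison and 0.03 after the GC offset in the second.

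Of type VI collagen, which forms beaded filaments around cells, 1 tested chain passed the threshold against vector control. COL6A3 was at 0.637, 0.512 and 0.283 TPM in vector control, at 1.40, 0.957 and 0.893 TPM with EMX1-FL, and at 1.00, 1.66 and 1.51 TPM with EMX1-X1, from 41 to 204 counts per library. Both overexpression groups lay above vector control without overlap. The gene rose with EMX1-FL by a log2 fold change of 1.12 (SE 0.32, 95% interval 0.42 to 1.81, edgeR unadjusted p = 0.00442, adjusted p = 0.361), and with EMX1-X1 by 1.46 (SE 0.32, 95% interval 0.77 to 2.15, edgeR unadjusted p = 0.000634, adjusted p = 0.31). Within the sets these differences were 0.62 and 2.09 for EMX1-FL and 0.74 and 2.22 for EMX1-X1. They were larger in set B, where both rest on vector control 3 alone (0.283 TPM, 41 counts). The rise with EMX1-FL fell below the fold threshold without EMX1-FL replicate 1 (0.87) or without vector control replicate 3 (0.86). In limma on log2(TPM + 1), a scale that compresses low values, the differences were 0.50 with EMX1-FL and 0.69 with EMX1-X1, and neither passed. The EMX1-X1 adjusted p was 0.047 with the GC offset and 0.0084 in DESeq2. With EMX1-FL minus EMX1-X1 at -0.35 (95% interval -1.01 to 0.32), the isoforms were not told apart.

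COL6A1 was at 18.1, 18.0 and 21.9 TPM in vector control, 30.1, 16.7 and 19.7 TPM with EMX1-FL and 17.8, 28.6 and 26.4 TPM with EMX1-X1. COL6A2 was at 16.1, 16.0 and 16.4 TPM in vector control, 23.2, 12.6 and 14.6 TPM with EMX1-FL and 15.4, 30.0 and 29.2 TPM with EMX1-X1. In both genes the high libraries were EMX1-FL 1 and EMX1-X1 2 and 3, which are libraries of set B, and the groups overlapped. Vector control 3, the other library of set B, lay below them in both genes. Their log2 fold changes were 0.10 and -0.04 with EMX1-FL and 0.22 and 0.52 with EMX1-X1, with no unadjusted p under 0.05. The ratio of COL6A1 to COL6A3 fell from 46.9 ± 26.4 in vector control to 20.3 ± 2.48 with EMX1-FL and 17.5 ± 0.299 with EMX1-X1 (SD, n = 3), and its vector control libraries, from 28.5 to 77.2, lay above those of both other groups.

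COL18A1, a multiplexin whose end fragment is endostatin, followed the same libraries. It stood at 5.77, 7.58 and 8.13 TPM in vector control, 17.5, 6.31 and 6.20 TPM with EMX1-FL and 8.33, 17.5 and 14.6 TPM with EMX1-X1. Its log2 fold changes were 0.39 with EMX1-FL (95% interval -0.51 to 1.28) and 0.80 with EMX1-X1 (-0.10 to 1.69). SLC19A1 overlaps 18.5% of the exon bases of COL18A1, and reads there cannot be assigned to either gene. Without EMX1-FL replicate 1, COL18A1 was lower with EMX1-FL than with EMX1-X1 by -1.10 on the log2 scale (edgeR adjusted p = 0.0467). COL26A1, a collagen outside the main classes, was at 5.08, 4.12 and 5.63 TPM in vector control, 11.8, 5.10 and 6.36 TPM with EMX1-FL and 7.59, 12.2 and 9.43 TPM with EMX1-X1. Its EMX1-X1 libraries lay wholly above vector control, with a log2 fold change of 0.87 (SE 0.33, edgeR unadjusted p = 0.0217, adjusted p = 0.568) that was 0.43 after the GC offset. COL23A1, a transmembrane collagen, was at 3.799 ± 0.675, 6.40 ± 2.85 and 6.37 ± 2.14 TPM in the same order of groups (SD, n = 3). COL7A1, the anchoring fibril chain of skin, COL10A1, the chain of hypertrophic cartilage, and COL13A1, a transmembrane chain, were under 2 TPM in every library, and none had an unadjusted p under 0.05.

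Many chains followed the set of a library as well as its group. The 14 tested chains with the higher GC content lay above their mean over the 9 libraries by a median of 0.75 (log2 CPM) in EMX1-FL replicate 1, 0.53 in EMX1-X1 replicate 2 and 0.45 in EMX1-X1 replicate 3. In the other 6 libraries their median was between -0.39 and -0.08, the latter in vector control replicate 3, which is also of set B. The 14 chains with the lower GC content ranged from -0.40 in vector control replicate 3 to 0.16 in EMX1-FL replicate 1. In the comparison of EMX1-X1 with vector control, the GC-rich chains had a median log2 fold change of 0.53 with all 14 above 0, and the GC-poor chains one of 0.32 with 10 of 14 above 0. After the GC offset these medians were 0.09, with 10 of 14, and 0.29, with 10 of 14. COL12A1 (46.6% GC), COL4A1 (50.5%), COL4A2 (54.5%) and COL6A3 (52.3%) are all among the GC-poor chains. After the GC offset their log2 fold changes with EMX1-FL were 1.05, 0.69, 0.91 and 1.09, and with EMX1-X1 they were 0.74, 0.46, 0.93 and 1.35.

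The genes that make, process, bind and degrade collagen were followed as a list of 72, of which 61 were tested. With EMX1-FL, 34 of the 61 were above 0, with a median log2 fold change of 0.08, and 5 passed the threshold, all higher. Over all genes, 56.3% were above 0 and 2.04% passed as higher. With EMX1-X1, 46 of 61 were above 0, with a median of 0.21, and 4 passed it, all higher, beside 51.1% and 1.95% of all genes. Between EMX1-FL and EMX1-X1, none passed it in edgeR. These counts and medians are from the main fit, and the list was not summarised after the GC offset. With that offset, some list genes moved toward 0 with EMX1-X1, such as PLOD3 (0.43 to 0.09) and FKBP10 (0.42 to 0.09). Others hardly moved, such as COLGALT2 (0.32 to 0.31) and FN1 (0.55 to 0.53). No gene that modifies, folds, exports, trims or cross-links collagen was among those called. At the shares over all genes, lists this short can hold no call, so this does not set them apart. The 14 tested prolyl and lysyl modification enzymes, the 9 chaperone and export genes, the 6 tested propeptide processing genes and the 4 tested cross-linking enzymes gave no call in any comparison, with medians between -0.02 and 0.34 with EMX1-FL and between -0.01 and 0.20 with EMX1-X1. SERPINH1, the collagen chaperone HSP47, stood at 97.04 to 118 TPM in vector control, 79.4 to 140 TPM with EMX1-FL and 83.6 to 129 TPM with EMX1-X1.

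The calls lay in degradation, receptors and collagen-binding matrix. MMP1, the interstitial collagenase that cuts fibrillar collagen, was at 13.96, 13.2 and 13.8 TPM in vector control, 43.8, 51.2 and 38.5 TPM with EMX1-FL and 25.6, 22.4 and 22.1 TPM with EMX1-X1. No groups overlapped, and MMP1 rose with EMX1-FL by a log2 fold change of 1.61 (SE 0.19, edgeR adjusted p = 0.0165). MMP2, a gelatinase that also cuts type IV collagen, was at 1.25, 1.69 and 2.17 TPM in vector control, 5.70, 4.66 and 4.68 TPM with EMX1-FL and 5.07, 5.15 and 5.67 TPM with EMX1-X1. It rose in both, by 1.44 (SE 0.27, edgeR adjusted p = 0.0733) and 1.51 (SE 0.27, adjusted p = 0.185). ITGA2, the α chain of a collagen-binding integrin, rose with EMX1-FL by 1.62 (SE 0.29, edgeR adjusted p = 0.0679). With EMX1-X1 it was higher by 0.87 (SE 0.29, edgeR adjusted p = 0.538), below the fold threshold. Its libraries in both overexpression groups lay above vector control. Of the matrix genes, TNC (tenascin-C) rose in both, by 1.37 and 1.57 (edgeR adjusted p = 0.252 and 0.31), from 0.46, 0.57 and 0.29 TPM in vector control. FBN2 (fibrillin-2) passed the threshold with EMX1-FL, higher by 1.31, from 0.65, 0.70 and 0.49 TPM in vector control. Its EMX1-X1 libraries, at 1.38, 0.78 and 1.20 TPM, also lay above vector control. TNXB (tenascin-X) and BGN (biglycan) passed the threshold with EMX1-X1, higher by 1.30 and 2.53, from levels under 1 TPM in vector control. The TNXB value was 0.75 after the GC offset. TNXB was at 0.91, 0.47 and 0.37 TPM in vector control and 0.75, 2.32 and 1.49 TPM with EMX1-X1, so these groups overlapped. BGN rested on 4, 2 and 0 counts in vector control and 13, 8 and 17 counts with EMX1-X1.

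Markers of other cell types were read beside these values. In these bulk libraries, fewer cells of a type and less RNA per cell cannot be told apart. All 5 endothelial and all 5 leukocyte markers were under 1 TPM in every library, with CDH5 and CD68 at 0. Of 9 hepatocyte markers, 7 were under 1 TPM in every library and AFP, TTR and FGB were at 0, so defining hepatocyte transcripts are absent or near 0 in this hepatocellular line. Their sum was 0.600 to 1.06 TPM in vector control, 1.93 to 3.40 with EMX1-FL and 1.16 to 2.63 with EMX1-X1. Among them ALB, at 0.454 to 0.705, 1.04 to 2.77 and 0.915 to 1.75 TPM, passed the threshold as higher in both comparisons (log2 fold changes 1.46 and 1.11). The 6 mesenchymal markers summed to 1061 to 1307 TPM in vector control, 1245 to 1418 with EMX1-FL and 1183 to 1354 with EMX1-X1, and ZEB1 passed the threshold as higher with EMX1-FL (1.22). ZEB1 was at 0.63, 0.32 and 0.20 TPM in vector control and 0.28, 1.27 and 1.28 TPM with EMX1-FL, so these groups overlapped. The 7 epithelial markers summed to 5.80 to 9.03, 7.85 to 12.5 and 7.56 to 11.96 TPM, with 4 of the 7 under 1 TPM in every library, KRT18 listed at 0 and none past the threshold. The 9 fibroblast and stellate cell markers summed to 516 to 866, 567 to 1024 and 642 to 950 TPM, most of it from LUM at 437 to 953 TPM. Of these, 4 were under 1 TPM in every library and none passed the threshold against vector control, while ACTA2 was lower with EMX1-FL than with EMX1-X1 (-1.13). The part of these markers in the collagen differences was not tested.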

How the data were processed

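RNA-seq libraries of SNU-398 cells (3 vector control, 3 EMX1-FL, 3 EMX1-X1, grouped by their labels) were analysed. Raw read-pair counts for each gene name were deposited. The header of the count table names featureCounts 2.0.1 with Ensembl release 99 of GRCh38, the submitters' processing notes list featureCounts 2.0.6 and STAR, while the published methods mention RSEM for counting. The command in that header sets no strand option, so reads of genes that overlap on opposite strands cannot be told apart. The authors also deposited log2(TPM + 1) values, which were recomputed from counts and gene lengths to within 5e-06 on the log2 scale and are printed as TPM.

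The members, classes and gene lists were chosen with earlier results of these data known. All 18574 genes passing filterByExpr were fitted in R 4.3.3 with edgeR 4.0.16 (TMM, quasi-likelihood F test, group as the only term, 9 libraries, 6 residual degrees of freedom), with Benjamini-Hochberg adjustment over all of them. The threshold was an unadjusted p under 0.05 and a log2 fold change beyond 1 in either direction. Intervals are at 95% and SD is between libraries. CPM are per 1000000 counted read pairs with a prior count of 2 on the log2 scale. Differences within sets are differences of mean log2 CPM. Depth was between 21562703 and 25197970 counts per library, and no 2 libraries held identical counts. Described singly were COL12A1, chains past the threshold, the 3 highest chains of each class and partners in a trimer or gene pair. COL1A1, COL23A1, COL26A1, COL27A1, SERPINH1, ALB, LUM, ZEB1 and ACTA2 were named after their values were seen.

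Alternatives used other scalings (RLE, upper-quartile, or only the library size), other tools (DESeq2 1.42.0, or limma 3.58.1 with a pseudocount of 1 or of 0.1 on TPM), other filters (any gene with a count, or 10 counts or more in every library) and other designs (the 6 libraries of a comparison alone, a block for the replicate number, the set of libraries as a covariate, an offset from a loess of each library on GC content with span 0.3 over 17752 genes). Each library was also left out in turn, and p alone was used as the threshold. The main edgeR fit was tested on simulated counts with no difference between the sets, and the GC offset on random GC values. The other alternatives were not tested in this way. Upstream windows come from RefSeq (GRCh38.p14), where 32 of the 44 chains were found, and GC content from GENCODE release 29 transcripts. Exon overlaps come from the count table. Python 3.11.15, pandas 2.3.3, scipy 1.17.1 and matplotlib 3.10.9 were used.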

Additional observations from a re-analysis of the deposited data

How the results depend on the processing

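Counts of chains past the threshold moved with the setting. With EMX1-FL against vector control, 2 chains became 1 in limma on log2(TPM + 1) and 6 by p alone, and leaving out single libraries gave 1 to 5. The 1 chain past the fold threshold at an adjusted p became 0 with RLE factors, both limma fits and only the 6 libraries, and 0 to 1 with a library left out, where its loss followed the omission of any library but EMX1-FL 1 or EMX1-X1 1. With EMX1-X1, 2 chains became 0 in limma on log2(TPM + 1), 1 with the GC offset, 1 with the set as covariate and 6 by p alone, and 1 to 4 with a library left out. The 0 chains past the fold threshold at an adjusted p became 1 in DESeq2, 2 without the filter and 1 with the GC offset. By adjusted p alone, with no fold threshold, the GC offset gave 3 chains with EMX1-FL and 2 with EMX1-X1, and the set as covariate gave 3 and 1. Between the isoforms, 0 became 2 by p alone, and 0 to 2 with a library left out, also at an adjusted p.

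Median log2 fold changes of all chains ranged, with a library left out, from 0.0754 to 0.59 with EMX1-FL, 0.37 to 0.59 with EMX1-X1 and -0.31 to 0.0669 between isoforms. In the same order, fibrillar medians ranged from -0.0246 to 0.47, 0.27 to 0.62 and -0.24 to 0.06, basement membrane medians from 0.30 to 0.54, 0.13 to 0.46 and 0.09 to 0.24, FACIT medians from -0.23 to 0.94, 0.27 to 0.74 and -0.19 to 0.34, and those of other chains from 0.0856 to 0.80, 0.50 to 0.76 and -0.58 to 0.0354. Without the filter the FACIT medians were 1.21 and 0.79 with EMX1-FL and EMX1-X1, over more chains, with COL20A1 (2 to 18 counts per library) among them. The GC offset gave 0.19, 0.0337 and -0.18 for all, fibrillar and FACIT chains with EMX1-X1. Over all genes with EMX1-FL, 450 past the threshold became 142 in limma on log2(TPM + 1) and 947 without the filter, and 13 past it at an adjusted p became 125 in DESeq2, 98 with the GC offset, 111 with the set as covariate and 4 in limma. In limma on log2(TPM + 0.1) the median of all genes was 0.11 in both comparisons with vector control. No other cause of these shifts was tested.

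Libraries that share only a replicate number did not deviate together (mean correlation -0.13 for the same number and 0.06 for different numbers). Blocking on that number, the 1 chain at an adjusted p with EMX1-FL became 0, while with this replicate block the log2 fold change of COL12A1 was 1.09 with EMX1-FL, 0.71 with EMX1-X1 and 0.38 between the isoforms. No chain past the threshold changed direction under any alternative run. The 16 untested chains rest on at most 18 counts in a library, which limits what could be detected for them.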
